A study of Mus musculus with 6 samples.

Results

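The 38 genes described here are genes of glycolysis and of the response to low oxygen: 17 glycolytic enzymes and 21 other genes, of which 4 sense oxygen, 4 carry glucose or lactate across the membrane, 3 regulate glycolysis and 10 are further target genes of the hypoxia-inducible factors (HIF). They were chosen by name, with earlier results of these data known. All 38 were found among the 27179 genes of the deposited counts through their Entrez Gene IDs. RNA of 3 immortalized mouse embryonic fibroblast (MEF) lines of C57BL/6 background was sequenced after poly-A selection, from 2 RNA preparations per line. Cry/Per/Nr1d_KO cells carry homozygous mutations of Cry1 and Cry2, of Per1 and Per2, and of Nr1d1 and Nr1d2. Cry/Per_KO cells keep intact Nr1d genes, and Per/Nr1d_KO cells keep intact Cry genes, so all 3 lines lack Per1 and Per2 and no line has a complete clock. The Cry/Per/Nr1d_KO line is 1 clone that was derived from Cry/Per_KO cells by CRISPR, and cells grew in high glucose DMEM with serum, without a treatment and without a change of oxygen. The comparison of the lines asks how endogenous NR1D or CRY proteins alter the transcriptome. With 1 line per genotype, the genotype and other differences between the lines cannot be told apart, and the p-values measure only the spread between 2 preparations of a line.

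For 4 of the 6 libraries the genotype label and the deposited name give different cells. The pair labelled Cry/Per_KO carries the name of Cry/Per/Nr1d_KO cells, and the reverse. Libraries are called by their genotype label. Under the deposited names the sign of each difference between the pairs labelled Cry/Per/Nr1d_KO and Cry/Per_KO is reversed, and the comparisons of the Per/Nr1d_KO pair with them change places. Transcripts of the 6 mutated genes were counted in all libraries, and all 6 were highest in both libraries labelled Cry/Per_KO, a pattern that 29.7% of all genes tested showed. Cry1 had 1698 and 1724 normalized counts in the pair labelled Cry/Per/Nr1d_KO, 5323 and 5478 in the pair labelled Cry/Per_KO, and 1535 and 1592 in the pair labelled Per/Nr1d_KO. Nr1d1 had 3158 and 3146, 9337 and 9249, and 5359 and 4838 in these pairs. NR1D proteins are known repressors of Cry1, and CRY and NR1D both restrain CLOCK-BMAL1 targets such as Nr1d1, so the highest levels would be looked for in cells without any of them. These levels go against the genotype labels of both pairs and fit the deposited names, under which the pair labelled Cry/Per_KO is Cry/Per/Nr1d_KO. The labels are kept below as names of libraries, and no direction between these pairs is ascribed to a genotype.

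Library totals ran from 53764390 to 85927236 counts. Of 11 fibroblast markers 7 had over 100 normalized counts in every library, with summed levels of 601100 to 655700 in the pair labelled Cry/Per/Nr1d_KO, 513100 to 537500 in the pair labelled Cry/Per_KO and 1074000 to 1075000 in the pair labelled Per/Nr1d_KO. The fibroblast markers Thy1 (0 to 6.21) and Lum (0 to 9.77) were at or near 0. The sum is carried by Col1a1, Col1a2 and Vim. Of the 7 tested markers, Col1a1, Col1a2 and Col3a1 were called higher and Pdgfra, Pdgfrb, S100a4 and Vim lower in the pair labelled Per/Nr1d_KO than in the pair labelled Cry/Per/Nr1d_KO, with a median log2 fold change of -0.87 (11.3% and 9.35% of all genes tested were called). Between the pairs labelled Cry/Per/Nr1d_KO and Cry/Per_KO, Col3a1 and S100a4 were called lower in the latter and 0 markers higher (8.95% and 7.86% of all genes tested). Without the limit on the fold 5 were lower and 1 (Col1a2) was higher (38.3% and 38.1% of all genes tested). With the median of the gene's chromosome subtracted, S100a4 (-0.49) lost this call. Vim (-0.75) then lost its call in the pair labelled Per/Nr1d_KO against the pair labelled Cry/Per/Nr1d_KO. Col3a1 had 836 and 801, 289 and 296, and 42810 and 43797 normalized counts across these pairs. The summed levels of 4 markers each did not exceed 131.8 for epithelium and 55.2 for endothelium, where Tie1 was at 0 in all libraries, and they did not exceed 289 for leukocytes, most of it Cd68. The epithelial sum was 129.3 and 131.8 in the pair labelled Per/Nr1d_KO and 17.67 to 64.41 in the other libraries. Cd68, the only leukocyte marker tested, was called higher in the pair labelled Per/Nr1d_KO than in the pairs labelled Cry/Per/Nr1d_KO (1.14) and Cry/Per_KO (0.81, log2 scale). The part of these differences in the results below was not tested, and in bulk RNA fewer cells with a transcript and less of it per cell cannot be told apart.

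Glycolysis splits glucose to pyruvate in the cytosol, and lactate dehydrogenase turns pyruvate into lactate, which leaves the cell through monocarboxylate transporters. HIF transcription factors raise many of these genes when oxygen is low. In oxygen, prolyl hydroxylases of the EGLN family mark HIF alpha subunits for binding by VHL and degradation, so that HIF activity is set largely at the protein, which mRNA counts do not measure. HIF binds the core motif ACGTG or GCGTG, and the E-box CACGTG that CLOCK-BMAL1 binds contains ACGTG.

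Because of this overlap of motifs, the bases before the transcription start are shown for 6 members that were called in at least 1 comparison and whose stretch overlaps no exon of GENCODE vM21: the hydroxylase gene Egln3, the kinase gene Pdk1, the collagen hydroxylase genes P4ha1 and P4ha2, the lactate transporter gene Slc16a1, and Hif1a itself. Vegfa, Pgk1 and Ldhb also meet this description and are not shown, and the Vegfa window holds neither motif. The stretches are from RefSeq (GRCm38.p6) and hold 250 bases, except that those of Pdk1 (241 bases) and P4ha1 (151 bases) end where the RefSeq span of the gene begins. The Hif1a stretch lies inside the span of its gene, before a start downstream of the first one. Capitals mark ACGTG and GCGTG on either strand (CACGT and CACGC when read on the other strand). Egln3 lies at chr12:54203875-54204124 (minus strand), Pdk1 at chr2:71872974-71873214 (plus strand), P4ha1 at chr10:59323046-59323196 (plus strand), P4ha2 at chr11:54100674-54100923 (plus strand), Slc16a1 at chr3:104638414-104638663 (plus strand) and Hif1a at chr12:73907617-73907866 (plus strand).
Egln3: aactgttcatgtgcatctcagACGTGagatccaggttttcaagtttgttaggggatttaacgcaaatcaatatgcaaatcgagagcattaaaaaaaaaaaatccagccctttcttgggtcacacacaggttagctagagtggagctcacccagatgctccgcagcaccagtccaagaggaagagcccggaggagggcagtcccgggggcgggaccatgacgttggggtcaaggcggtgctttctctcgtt
Pdk1: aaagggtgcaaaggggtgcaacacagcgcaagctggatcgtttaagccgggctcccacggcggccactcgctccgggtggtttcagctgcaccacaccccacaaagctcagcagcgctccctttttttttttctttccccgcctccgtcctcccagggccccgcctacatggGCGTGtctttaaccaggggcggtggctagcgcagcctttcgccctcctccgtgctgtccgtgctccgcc
P4ha1: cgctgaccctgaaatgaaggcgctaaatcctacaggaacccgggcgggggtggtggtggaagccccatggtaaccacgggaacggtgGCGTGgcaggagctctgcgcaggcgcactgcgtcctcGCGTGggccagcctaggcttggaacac
P4ha2: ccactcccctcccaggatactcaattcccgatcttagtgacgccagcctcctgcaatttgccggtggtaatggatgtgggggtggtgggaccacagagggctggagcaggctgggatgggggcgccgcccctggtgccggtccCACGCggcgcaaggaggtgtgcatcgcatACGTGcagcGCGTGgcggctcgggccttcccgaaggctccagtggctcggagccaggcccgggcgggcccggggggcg
Slc16a1: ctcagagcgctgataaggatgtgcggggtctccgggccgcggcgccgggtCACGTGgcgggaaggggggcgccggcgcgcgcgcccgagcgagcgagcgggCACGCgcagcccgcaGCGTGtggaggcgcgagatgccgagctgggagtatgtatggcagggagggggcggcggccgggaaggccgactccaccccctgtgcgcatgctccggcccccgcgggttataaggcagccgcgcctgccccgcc
Hif1a: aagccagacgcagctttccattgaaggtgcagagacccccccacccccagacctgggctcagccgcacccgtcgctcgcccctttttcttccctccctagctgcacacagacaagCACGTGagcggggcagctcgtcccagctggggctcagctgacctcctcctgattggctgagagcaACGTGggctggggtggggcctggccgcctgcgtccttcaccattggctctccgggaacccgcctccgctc

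Windows of 300 bases, 250 before and 50 after the start, were listed for 34 of the 38 members, and 1 window per gene was searched on both strands. For 8 members the stretch before the listed start lies wholly inside the RefSeq span of the gene, which then begins farther upstream. ACGTG was present in 20 of the 34 windows (58.8%), against 26.3% of the 9352 windows of genes tested and 19.6% of all 27025 windows. It was present in 7 of 17 glycolytic enzymes (41.2%) and in 13 of 17 other members (76.5%). GCGTG was present in 55.9% of member windows and 53.4% of windows of genes tested. The E-box CACGTG, which also counts as ACGTG, was in 5 member windows (14.7%), those of Hif1a, Bnip3, Ldha, Pfkm and Slc16a1, against 10.6% of windows of genes tested. Egln3, Slc16a3, Tpi1, Eno2, Pdk1, Bnip3, Ankrd37 and Higd1a were called higher in the pair labelled Cry/Per_KO than in both other pairs (below). The share of all genes tested with both calls was not counted. Among these 8 members, picked by their calls, ACGTG was present in 5 and GCGTG in 4. Neither motif was in the windows of Tpi1 and Eno2. These matches are a description of the letters in the windows.

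Counts were scaled to normalized counts by the TMM method, and 36 of the 38 members passed a filter on their mean level (100 normalized counts or more). The quasi-likelihood test of edgeR was run over all 11934 genes that passed, with Benjamini-Hochberg adjustment. A gene was called where the adjusted p was below 0.05 and the log2 fold change was beyond 0.81 in size, the limit on the fold. Slc2a3, a glucose transporter gene with 19.7 to 41.2 normalized counts, and Aldoc, an aldolase gene with 39.3 to 68.9, did not pass the filter. Neither is counted among the members tested, and in a fit without the filter neither was called (lowest adjusted p 0.103, edgeR). Among the members tested, Epas1 passed the filter only through the pair labelled Cry/Per/Nr1d_KO. Slc16a3 passed it only through the pair labelled Cry/Per_KO. The calls of these genes, counted below, rest on those pairs.

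**Figure D1:**
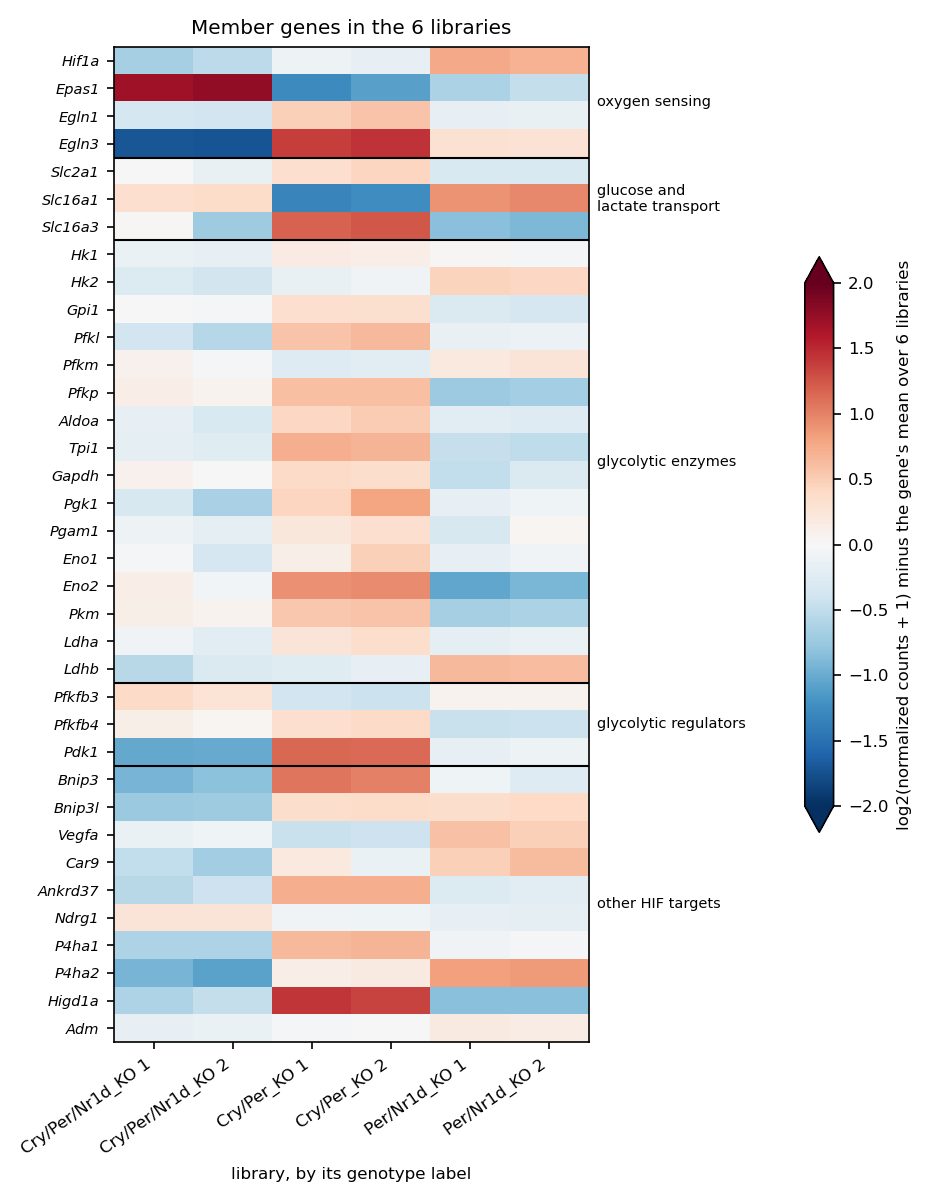
Level of the 36 members tested (rows, grouped by role) in the 6 libraries (columns, by genotype label), as log2(normalized counts + 1) minus the gene's mean over the 6 libraries. Most glycolytic enzymes are reddest in the pair labelled Cry/Per_KO, while Hif1a, Hk2, Vegfa and P4ha2 are highest in the pair labelled Per/Nr1d_KO.

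Between the pairs labelled Cry/Per/Nr1d_KO and Cry/Per_KO, 14 of the 36 members tested were called higher in the latter and 2 were called lower, where 7.86% and 8.95% of all genes tested were called. The 14 comprised 4 of 16 glycolytic enzymes (Pfkl, Pgk1, Tpi1 and Eno2) and 10 of 20 other members (Egln1, Egln3, Slc16a3, Pdk1, Bnip3, Bnip3l, Ankrd37, P4ha1, P4ha2 and Higd1a). The 2 called lower were Epas1 and Slc16a1. Without the limit on the fold, 28 members were higher and 6 lower, against 38.1% and 38.3% of all genes tested. Of the glycolytic enzymes 14 were then higher and only Pfkm was lower. Their median log2 fold change was 0.45, that of the other members 0.75, and that of all genes tested 0.00.

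The counts of all members made up 0.553% to 0.585% of all counts in the pair labelled Cry/Per/Nr1d_KO, 0.887% to 0.905% in the pair labelled Cry/Per_KO and 0.586% to 0.589% in the pair labelled Per/Nr1d_KO. Both libraries labelled Cry/Per_KO lay above the other 4 libraries for 23 of the 36 members, a pattern that 29.7% of all genes tested showed. This held for 13 of the 16 glycolytic enzymes. Both libraries labelled Per/Nr1d_KO were highest for 9 members (32.7% of all genes tested) and both libraries labelled Cry/Per/Nr1d_KO for 3 members (21.1% of all genes tested).

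**Figure D2:**
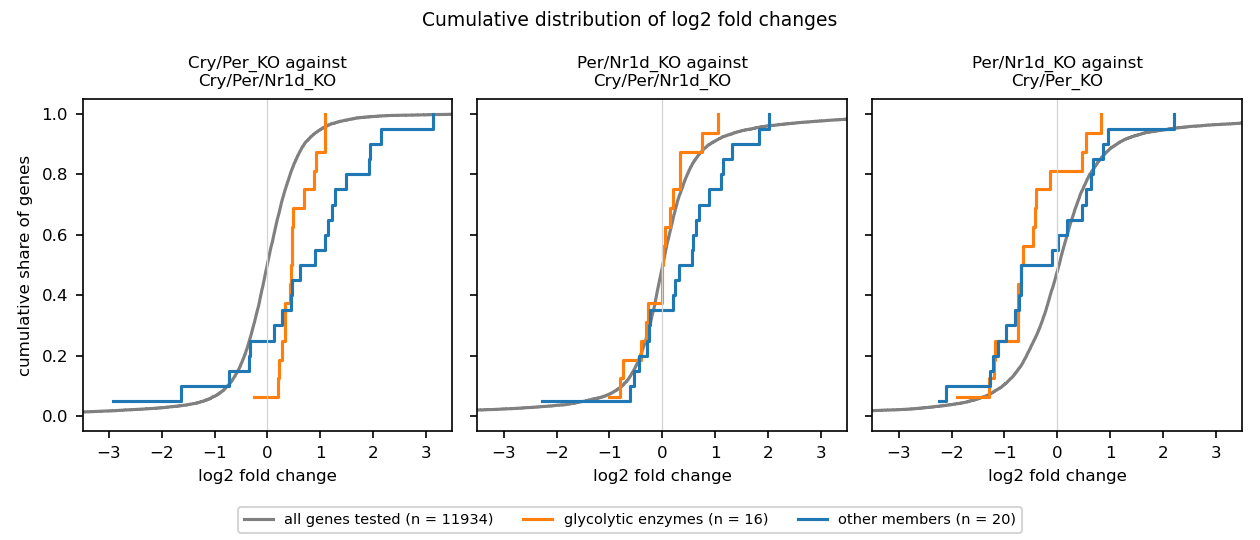
Cumulative share of genes (vertical axis) against log2 fold change (horizontal axis) for all 11934 genes tested, 16 glycolytic enzymes and 20 other members, in the 3 comparisons of libraries by genotype label. In the first panel the curves of both member groups lie to the right of all genes over most of their range (medians 0.45 and 0.75), and in the third panel they lie to the left at their medians (-0.66 and -0.39).

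The oxygen-sensing genes were led by Hif1a in level. Hif1a, which encodes the regulated subunit of HIF-1, had 18855 and 20769 normalized counts in the pair labelled Cry/Per/Nr1d_KO, 27642 and 26595 in the pair labelled Cry/Per_KO, and 50438 and 48031 in the pair labelled Per/Nr1d_KO. The 3 pairs did not overlap, and the Per/Nr1d_KO pair was highest. Its log2 fold change was 1.31 ± 0.05 (SE) against the pair labelled Cry/Per/Nr1d_KO (adjusted p = 2.54e-12, edgeR) and 0.86 ± 0.05 against the pair labelled Cry/Per_KO (adjusted p = 2.99e-10, edgeR), a call that was lost with library totals (0.76). Hif1a was 1.37-fold higher in the pair labelled Cry/Per_KO than in the pair labelled Cry/Per/Nr1d_KO, below the limit for a call, and its log2 fold change of 0.45 was 0.11 with the chromosome 12 median subtracted.

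Epas1, which encodes the alternative subunit HIF-2 alpha, was highest in the pair in which Hif1a was lowest. It had 431 and 456 normalized counts in the pair labelled Cry/Per/Nr1d_KO, 54.5 and 61.9 in the pair labelled Cry/Per_KO, and 84.9 and 95.5 in the pair labelled Per/Nr1d_KO. It fell by 2.92 on the log2 scale (SE 0.14, adjusted p = 5.9e-11, edgeR) in the pair labelled Cry/Per_KO and by 2.28 (SE 0.12, adjusted p = 1.58e-10, edgeR) in the pair labelled Per/Nr1d_KO. Per kilobase of exon Hif1a had 5884 normalized counts and Epas1 had 35.8, as means over the 6 libraries.

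Egln3, a hydroxylase gene of this family that HIF itself strongly induces, differed most of all members between the first 2 pairs. It had 327 and 321 normalized counts in the pair labelled Cry/Per/Nr1d_KO, 2798 and 2915 in the pair labelled Cry/Per_KO, and 1326 and 1311 in the pair labelled Per/Nr1d_KO. These are 8.82-fold and 4.07-fold the level of the pair labelled Cry/Per/Nr1d_KO, with log2 fold changes of 3.14 ± 0.07 (adjusted p = 2.12e-14, edgeR) and 2.02 ± 0.07 (adjusted p = 9.63e-13, edgeR). Egln1, the main HIF prolyl hydroxylase gene, had 6432 and 6242, 11378 and 12175, and 7269 and 7389 normalized counts across these pairs. Its only call was the rise in the pair labelled Cry/Per_KO against the pair labelled Cry/Per/Nr1d_KO (log2 fold change 0.89 ± 0.05, adjusted p = 1.94e-10, edgeR).

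The transporters bring glucose in and lactate out. Slc2a1, which encodes the glucose transporter GLUT1, had 8446 and 7628 normalized counts in the pair labelled Cry/Per/Nr1d_KO, 10702 and 11390 in the pair labelled Cry/Per_KO, and 6837 and 6828 in the pair labelled Per/Nr1d_KO. The pairs did not overlap, but no difference passed the limit on the fold (log2 fold changes of 0.46, -0.24 and -0.69 in the 3 comparisons, each with an adjusted p of at most 0.000856 in edgeR). Slc2a1 made up 99.6% to 99.8% of the counts per kilobase of Slc2a1 and Slc2a3 in each library.

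The lactate transporters moved in opposite directions. Slc16a1, which encodes MCT1, had 10086 and 10279 normalized counts in the pair labelled Cry/Per/Nr1d_KO, 3191 and 3366 in the pair labelled Cry/Per_KO, and 14948 and 15573 in the pair labelled Per/Nr1d_KO. It was 3.10-fold lower in the pair labelled Cry/Per_KO than in the pair labelled Cry/Per/Nr1d_KO (log2 fold change -1.63 ± 0.05, adjusted p = 3.35e-13, edgeR), and 4.65-fold higher in the pair labelled Per/Nr1d_KO than in the pair labelled Cry/Per_KO (2.22 ± 0.05, adjusted p = 1.39e-15, edgeR). Slc16a1 lies on chromosome 3, where the 577 genes tested had median log2 fold changes of -0.65 and 0.88 in these comparisons. With these medians subtracted its changes were -0.99 and 1.34, and it kept both calls.

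Slc16a3, the HIF-inducible MCT4 gene, had 139 and 83.3 normalized counts in the pair labelled Cry/Per/Nr1d_KO, 312 and 326 in the pair labelled Cry/Per_KO, and 76 and 72.6 in the pair labelled Per/Nr1d_KO. It rose by 1.49 ± 0.17 on the log2 scale between the first 2 pairs (adjusted p = 1.03e-06, edgeR), and was 4.31-fold lower in the pair labelled Per/Nr1d_KO than in the pair labelled Cry/Per_KO (-2.11 ± 0.18, adjusted p = 2.84e-08, edgeR). Slc16a3 passed the filter only through the pair labelled Cry/Per_KO, so both calls rest on that pair. Per kilobase its share of both transporters was 8.86% and 8.79% in the pair labelled Cry/Per_KO, and between 0.462% and 1.36% in the other 4 libraries, so that Slc16a1 remained the main transcript of the pair in all libraries.

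The glycolytic enzymes of the early steps changed unequally. Hk1, the hexokinase gene with the higher level, stayed between 15288 and 19071 normalized counts in all libraries. Hk2, the inducible hexokinase gene, had 3455 and 3234 normalized counts in the pair labelled Cry/Per/Nr1d_KO, 3743 and 3959 in the pair labelled Cry/Per_KO, and 5668 and 5573 in the pair labelled Per/Nr1d_KO. Hk2 was thus highest in the Per/Nr1d_KO pair, by 0.75 ± 0.05 (adjusted p = 2.74e-09, edgeR) and 0.54 ± 0.05 (adjusted p = 8.16e-08, edgeR) on the log2 scale against the other pairs, without passing the limit on the fold. With the chromosome 6 medians subtracted these values were 0.83 and 0.96 and passed it. Per kilobase Hk2 was 22.1% and 22.2% of the hexokinase counts in the Per/Nr1d_KO pair and 14.5% to 16% in the other libraries.

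Phosphofructokinase catalyses the committed step and has 3 genes. Pfkl, the liver-type gene, had 14496 and 12744 normalized counts in the pair labelled Cry/Per/Nr1d_KO, 28193 and 29590 in the pair labelled Cry/Per_KO, and 17043 and 17427 in the pair labelled Per/Nr1d_KO. It rose by 1.08 ± 0.05 on the log2 scale in the pair labelled Cry/Per_KO (adjusted p = 1.43e-10, edgeR). Pfkm, the muscle-type gene, was lowest in that pair, with 4828 and 4964 against 5619 to 6909 in the other libraries. Pfkp, the platelet-type gene, had 5965 and 5713, 8212 and 8244, and 3288 and 3402 normalized counts, and was called lower in the Per/Nr1d_KO pair than in the pair labelled Cry/Per_KO (-1.30 ± 0.05, adjusted p = 8.15e-13, edgeR). Exons of Pitrm1 on the opposite strand cover 17.4% of the Pfkp exons.

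In the later steps Tpi1, the triosephosphate isomerase gene, had 27270 and 26186 normalized counts in the pair labelled Cry/Per/Nr1d_KO, 51157 and 49527 in the pair labelled Cry/Per_KO, and 22612 and 21702 in the pair labelled Per/Nr1d_KO. It was called higher in the pair labelled Cry/Per_KO than in the pair labelled Cry/Per/Nr1d_KO (0.91 ± 0.04, adjusted p = 8.48e-11, edgeR) and lower in the Per/Nr1d_KO pair than in the pair labelled Cry/Per_KO (-1.18 ± 0.04, adjusted p = 1.22e-12, edgeR). Eno2, the neuronal-type enolase gene, had 728 and 642, 1250 and 1276, and 323 and 353 normalized counts across these pairs. It was the only enzyme called in all 3 comparisons (0.88 ± 0.08, -1.01 ± 0.09 and -1.89 ± 0.09). Tpi1 and Eno2 lie on chromosome 6, where the 560 genes tested had median log2 fold changes of 0.34 between the first 2 pairs and -0.41 between the last 2. With these medians subtracted, the rises of Tpi1 (0.57) and Eno2 (0.53) and the fall of Tpi1 (-0.77) were under the limit on the fold.

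Pkm, the pyruvate kinase gene, had the highest level per kilobase of all members (39860, mean over the 6 libraries). It had 106385 and 102816 normalized counts in the pair labelled Cry/Per/Nr1d_KO, 142466 and 145206 in the pair labelled Cry/Per_KO, and 61963 and 62811 in the pair labelled Per/Nr1d_KO. The fall of 1.21 on the log2 scale from the pair labelled Cry/Per_KO to the Per/Nr1d_KO pair was called (SE 0.04, adjusted p = 9.57e-13, edgeR). Pkm lies on chromosome 9, whose 657 genes tested had a median of -0.84 in this comparison, and with this median subtracted the change was -0.37. Ldha, the lactate dehydrogenase gene of glycolytic cells, had 41519 and 37665, 52052 and 55775, and 38600 and 40115 normalized counts across the 3 pairs, and no difference passed the limit on the fold (0.45 ± 0.05, -0.01 ± 0.05 and -0.45 ± 0.05 on the log2 scale, adjusted p = 1.83e-06, 0.887 and 9.98e-07, edgeR). Aldoa, the main aldolase gene, behaved likewise, with 59942 and 64359 in the pair labelled Cry/Per_KO and 36769 to 40275 in the other 4 libraries (0.69 ± 0.05 between the first 2 pairs). Ldhb, the lactate dehydrogenase gene of oxidative tissues, had 233 and 279, 288 and 307, and 536 and 525 normalized counts, and was called higher in the Per/Nr1d_KO pair than in both others (1.06 ± 0.10, adjusted p = 2.39e-07, and 0.83 ± 0.10, adjusted p = 2.38e-06, edgeR). The second of these calls was lost without Cry/Per_KO replicate 1 (0.79), with library totals (0.73) and in glmTreat. Ldhb still made up no more than 1.98% of the lactate dehydrogenase counts per kilobase in any library.

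**Figure D3:**
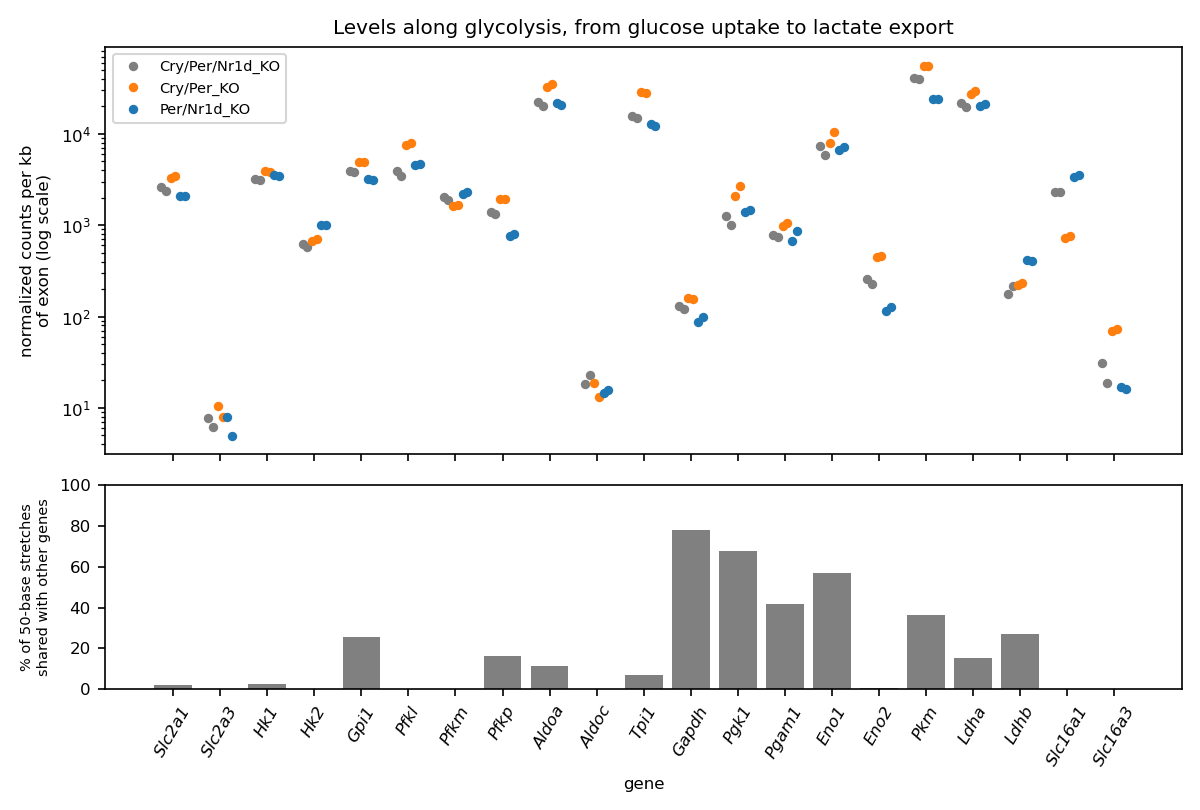
Upper panel: normalized counts per kilobase of exon (log scale) for the transporters and enzymes in the order of the pathway, each point 1 library coloured by genotype label. Lower panel: share of the gene's 50-base stretches that also occur in transcripts of other annotated genes. Gapdh lies near 125 counts per kilobase with 78.3% of its stretches shared, whereas Tpi1, which works at the step before it, lies near 18750 with 6.83% shared.

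Some enzymes share sequence with processed copies in the genome, and reads of 50 bases cannot be placed between identical stretches. Gapdh, often used as a reference gene, had only 193 and 181, 238 and 233, and 129 and 149 normalized counts across the 3 pairs, which is 125 per kilobase as a mean over the libraries. Its log2 fold changes were 0.33 ± 0.12, -0.41 ± 0.13 and -0.74 ± 0.13 in the 3 comparisons (adjusted p = 0.0218, 0.00971 and 6.12e-05, edgeR), within the limit on the fold. Of its 50-base stretches 78.3% also occurred in transcripts of 222 other annotated genes, 213 of them pseudogenes. The shares were 68% for Pgk1, 57.2% for Eno1, 41.5% for Pgam1, 36.3% for Pkm, 27% for Ldhb and 25.3% for Gpi1. Outside the enzymes they were 59.1% for Bnip3, 25.4% for Higd1a and 24.4% for Bnip3l. Not all partners are processed copies: of the 122 genes that share stretches with Gpi1 only 3 are pseudogenes. The largest partner of Higd1a is Gm47112, whose exons overlap it on the opposite strand. How reads with several alignments were counted is not stated, so the levels of the genes with these shares are uncertain. Pgk1, called higher in the pair labelled Cry/Per_KO (1.09 ± 0.10, adjusted p = 1.91e-07, edgeR), had 3818 and 4901 normalized counts there, 2276 and 1818 in the pair labelled Cry/Per/Nr1d_KO, and 2521 and 2682 in the pair labelled Per/Nr1d_KO. Eno1 had 20413 and 26292 normalized counts in the pair labelled Cry/Per_KO and 14906 to 18688 in the other 4 libraries, and was not called. Gpi1, the glucose-6-phosphate isomerase gene, had 11348 and 11075, 14218 and 14190, and 9221 and 8996 normalized counts across the pairs. Pgam1, the phosphoglycerate mutase gene, had 1394 and 1323, 1755 and 1887, and 1197 and 1541. Neither was called in any comparison, and both were highest in the pair labelled Cry/Per_KO.

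Among the regulators of glycolysis, Pdk1 encodes a kinase that switches off pyruvate dehydrogenase and so keeps pyruvate out of the mitochondria. It had 2896 and 2933 normalized counts in the pair labelled Cry/Per/Nr1d_KO, 13023 and 12971 in the pair labelled Cry/Per_KO, and 5287 and 5518 in the pair labelled Per/Nr1d_KO. All 3 differences were called: 4.46-fold between the first 2 pairs (2.16 ± 0.05, adjusted p = 1.33e-14, edgeR), 0.89 ± 0.05 and -1.27 ± 0.04 on the log2 scale in the comparisons with the Per/Nr1d_KO pair. Pfkfb3 and Pfkfb4, which set the level of the phosphofructokinase activator fructose 2,6-bisphosphate, were not called in any comparison. Pfkfb3 was highest in the pair labelled Cry/Per/Nr1d_KO (2279 and 2119 normalized counts) and lowest in the pair labelled Cry/Per_KO (1349 and 1305). Pfkfb4 was highest in the pair labelled Cry/Per_KO (1094 and 1122) and lowest in the Per/Nr1d_KO pair (631 and 639). Per kilobase Pfkfb4 was 56.2% and 57.7% of the counts of both genes in the pair labelled Cry/Per_KO and 35.3% to 40% in the other libraries.

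**Figure D4:**
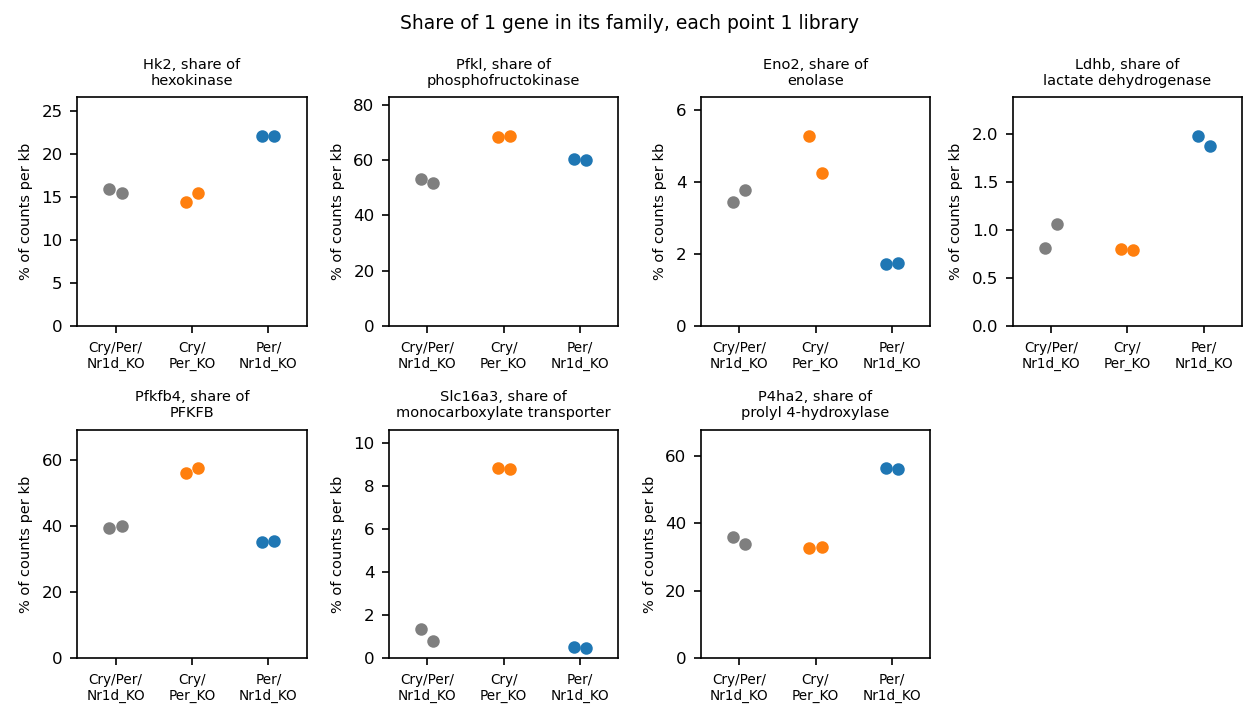
Share of 1 gene in the summed counts per kilobase of its family (vertical axes, %), with each point 1 library and the pairs by genotype label. Slc16a3 and Pfkfb4 have their highest shares in the pair labelled Cry/Per_KO, and Hk2, Ldhb and P4ha2 in the pair labelled Per/Nr1d_KO.

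Of the 10 other HIF targets, 6 were called higher in the pair labelled Cry/Per_KO than in the pair labelled Cry/Per/Nr1d_KO and 0 lower, in edgeR at the same thresholds (7.86% and 8.95% of all genes tested). Without the limit on the fold 7 were higher and 2 (Ndrg1 and Vegfa) lower (38.1% and 38.3% of all genes tested). Bnip3, which encodes a receptor for mitophagy, had 1025 and 1104 normalized counts in the pair labelled Cry/Per/Nr1d_KO, 4109 and 3934 in the pair labelled Cry/Per_KO, and 1845 and 1627 in the pair labelled Per/Nr1d_KO (1.92 ± 0.07, adjusted p = 3.95e-12, for the first 2 pairs and -1.22 ± 0.07, adjusted p = 1.19e-10, for the last 2, edgeR). Its relative Bnip3l had 2134 and 2170, 4531 and 4591, and 4547 and 4722. It was called higher in both other pairs than in the pair labelled Cry/Per/Nr1d_KO (1.08 ± 0.05, adjusted p = 4.43e-11, and 1.11 ± 0.05, adjusted p = 1.25e-11, edgeR), and its difference between those pairs was 0.02 ± 0.05 on the log2 scale. With the chromosome 14 medians subtracted the second of these rises was 0.59 and was no longer called, and the difference between those pairs was -0.60. Exons of Gm45507 on the opposite strand cover 27.2% of the Bnip3 exons.

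Higd1a, whose product acts on the respiratory chain under low oxygen, had 899 and 986 normalized counts in the pair labelled Cry/Per/Nr1d_KO, 3690 and 3527 in the pair labelled Cry/Per_KO, and 767 and 767 in the pair labelled Per/Nr1d_KO. It was 3.83-fold higher in the pair labelled Cry/Per_KO than in the pair labelled Cry/Per/Nr1d_KO (1.94 ± 0.07, adjusted p = 1.73e-12, edgeR) and 4.70-fold lower in the Per/Nr1d_KO pair than in the pair labelled Cry/Per_KO (-2.23 ± 0.07, adjusted p = 7.21e-14, edgeR). With the chromosome 9 medians subtracted these changes were 1.56 and -1.40, and both calls were kept. Exons of Gm47112 on the opposite strand cover 22.5% of the Higd1a exons. Ankrd37, a small ankyrin repeat gene, had 479 and 480 in the pair labelled Cry/Per_KO and 197 to 247 in the other 4 libraries, and was called in the same comparisons (2.32-fold higher and 1.97-fold lower, adjusted p = 4.58e-08 and 2.49e-07, edgeR). Exons of Lrp2bp and Ufsp2 on the opposite strand cover 26.2% of the Ankrd37 exons.

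The collagen prolyl 4-hydroxylase genes split. P4ha1 was highest in the pair labelled Cry/Per_KO, with 15411 and 15438, 37155 and 37806, and 22503 and 23098 normalized counts across the 3 pairs (1.28 ± 0.04 between the first 2, adjusted p = 1.14e-12, edgeR). P4ha2 was highest in the Per/Nr1d_KO pair, with 4911 and 4464, 10241 and 10563, and 16557 and 16774 (1.15 ± 0.05, adjusted p = 2.74e-11, and 1.83 ± 0.05, adjusted p = 3.4e-14, against the pair labelled Cry/Per/Nr1d_KO, edgeR). P4ha2 was 56.4% and 56.1% of the counts per kilobase of both genes in the Per/Nr1d_KO pair and 32.6% to 35.9% in the other libraries.

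Vegfa, the angiogenic growth factor gene, had 9082 and 9421 normalized counts in the pair labelled Cry/Per/Nr1d_KO, 7313 and 7495 in the pair labelled Cry/Per_KO, and 14917 and 13843 in the pair labelled Per/Nr1d_KO. It was called higher in the Per/Nr1d_KO pair than in the pair labelled Cry/Per_KO (0.96 ± 0.05, adjusted p = 3.64e-11, edgeR). Car9, the membrane carbonic anhydrase gene, was low throughout (83.3 to 210) and was called higher in the Per/Nr1d_KO pair than in the pair labelled Cry/Per/Nr1d_KO (1.15 ± 0.15, adjusted p = 6.81e-06, edgeR). Ndrg1 and Adm were not called in any comparison: Ndrg1 had 6095 and 6103 normalized counts in the pair labelled Cry/Per/Nr1d_KO and 4441 to 4839 in the other libraries, and Adm had 872 to 1101 in all libraries.

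**Figure D5:**
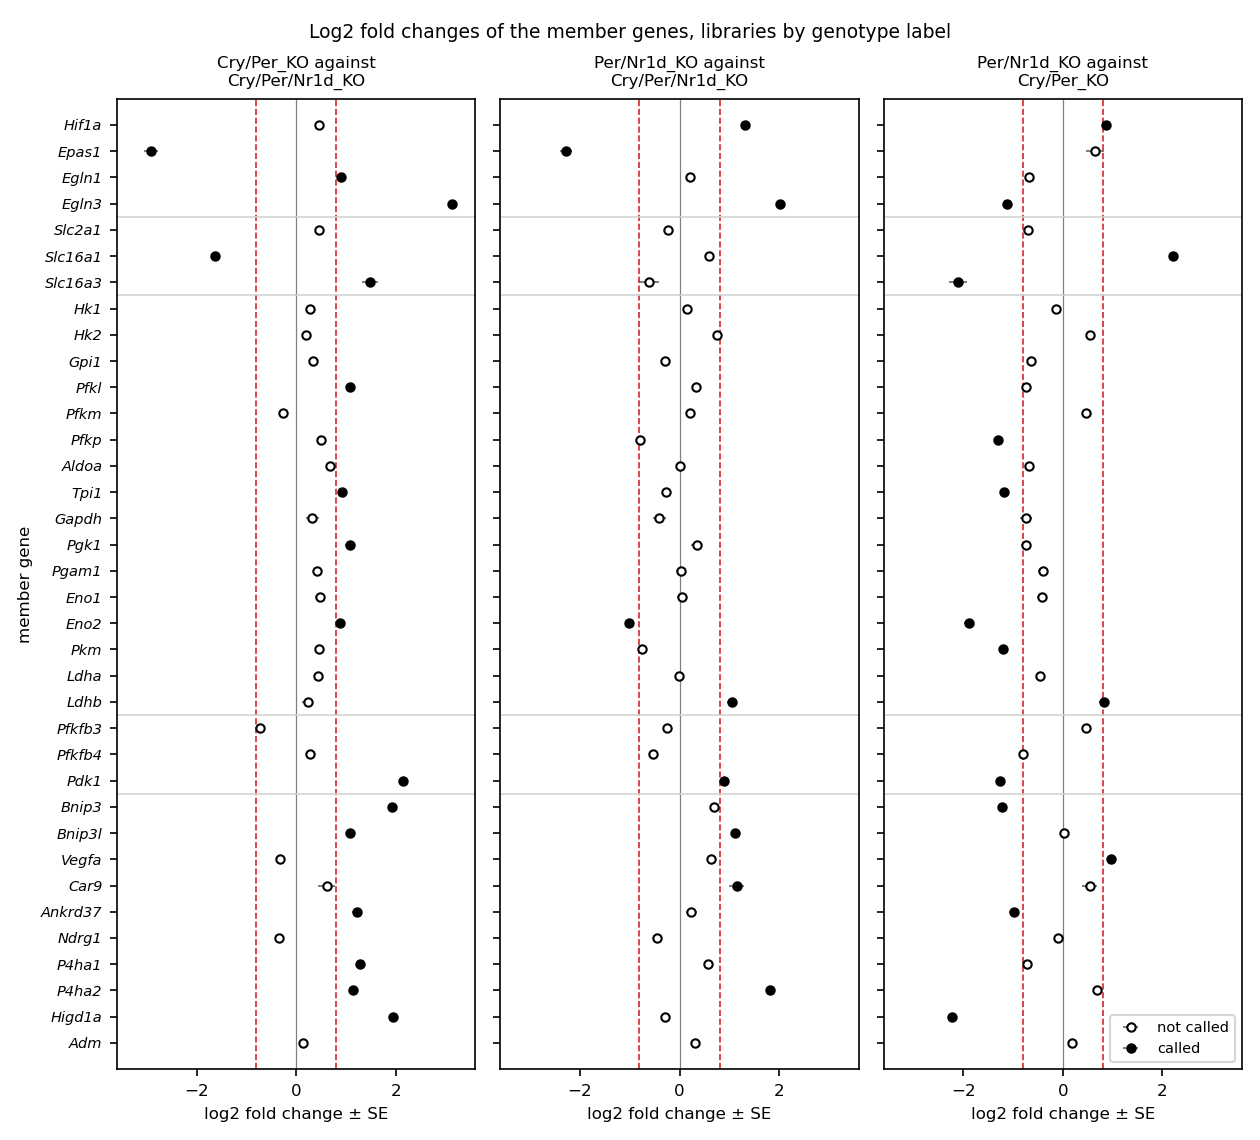
Log2 fold change with its standard error (horizontal axes) of the 36 members tested in the 3 comparisons, libraries by genotype label. Filled points were called, and dashed lines mark the limit on the fold. Egln3 (3.14) and Epas1 (-2.92) lie farthest from 0, both in the first panel, whose signs turn under the deposited names. Epas1 passed the filter only through the pair labelled Cry/Per/Nr1d_KO.

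In the comparison of the pairs labelled Per/Nr1d_KO and Cry/Per/Nr1d_KO, 7 of the 36 members were called higher (Hif1a, Egln3, Ldhb, Pdk1, Bnip3l, Car9 and P4ha2) and 2 lower (Epas1 and Eno2), where 11.3% and 9.35% of all genes tested were called. Of the glycolytic enzymes 1 was called in each direction (1 higher and 2 lower under several alternatives, DESeq2 and library totals among them), and their median log2 fold change was 0.01, as was that of all genes tested. The median of the other members was 0.44. Without the limit on the fold, 18 members were higher and 13 lower (38.7% and 37.1% of all genes tested), and the glycolytic enzymes divided into 6 higher and 6 lower.

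In the comparison of the pairs labelled Per/Nr1d_KO and Cry/Per_KO, 4 members were called higher (Hif1a, Slc16a1, Ldhb and Vegfa) and 10 lower (Egln3, Slc16a3, Pfkp, Tpi1, Eno2, Pkm, Pdk1, Bnip3, Ankrd37 and Higd1a), where 15.2% and 13.8% of all genes tested were called. The lower genes included 4 of 16 glycolytic enzymes, and 1 was higher. Scaled by library totals, 7 were lower and 0 higher, and the other members changed from 3 higher and 6 lower to 2 and 8. The median was -0.66 for glycolytic enzymes, -0.39 for other members and 0.03 for all genes tested. Without the limit on the fold, 11 members were higher and 23 lower (42.8% and 39.3% of all genes tested), with 3 glycolytic enzymes higher and 13 lower. This comparison shares the pair labelled Cry/Per_KO with the first one, so the high levels of that pair enter both.

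Other genes of the pathway were read from lists. Of 30 further HIF targets 27 were tested. Between the pairs labelled Cry/Per/Nr1d_KO and Cry/Per_KO 8 were called higher and 4 lower, which is 29.6% and 14.8% against 7.86% and 8.95% of all genes tested (Ak4, Angptl4, Fam162a, Kdm3a, Lox, Mxi1, Pgm1 and Plod2 higher). The largest fall was in Car12 (-2.94 ± 0.15) and the largest rise in Angptl4 (1.61 ± 0.30). Angptl4 had only 11.5 and 12.2 normalized counts in the pair labelled Cry/Per/Nr1d_KO and 34.5 and 38.3 in the pair labelled Cry/Per_KO. It passed the filter only through the pair labelled Per/Nr1d_KO (363 and 333), so its call and rank here rest on levels below the filter. The next largest rise was in Plod2 (1.53 ± 0.05). The median of the list was 0.37. Between the pairs labelled Per/Nr1d_KO and Cry/Per/Nr1d_KO 6 were called higher and 4 lower (22.2% and 14.8% against 11.3% and 9.35% of all genes tested), with a median of 0.33. The extremes were Loxl2, a lysyl oxidase gene that modifies collagen, with 2538 and 2545 normalized counts in the Per/Nr1d_KO pair against 11.5 and 11.1, and Flt1, a VEGF receptor gene, with 84.9 and 85.2 in the Per/Nr1d_KO pair against 2521 and 2495. Between the pairs labelled Per/Nr1d_KO and Cry/Per_KO 7 were called in each direction (25.9% each, against 15.2% and 13.8% of all genes tested), again with Loxl2 and Flt1 (-4.20 ± 0.09) at the extremes. Loxl2 had 16.7 and 13.7 normalized counts in the pair labelled Cry/Per_KO. Like Angptl4, it passed the filter only through the Per/Nr1d_KO pair, so its calls and rank in both comparisons rest on that pair. With chromosome medians subtracted, 4 of the 14 calls between the pairs labelled Per/Nr1d_KO and Cry/Per_KO were lost (Ddit4, Kdm3a, Plod2 and Anxa2).

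Of 15 other regulators of the HIF pathway 14 were tested. Arnt and Arnt2, which encode the partner subunit of HIF alpha, were called lower in the pair labelled Cry/Per_KO than in the pair labelled Cry/Per/Nr1d_KO (-0.82 ± 0.04 and -1.21 ± 0.08), and Vhl was called higher (0.83 ± 0.06). These are 7.14% of the list higher and 14.3% lower, against 7.86% and 8.95% of all genes tested. With the medians of chromosomes 3 and 6 subtracted, Arnt was at -0.18 and Vhl at 0.48, and both calls were lost. Cited2, which encodes a competitor of HIF for its coactivators, was the only one of this list called in the Per/Nr1d_KO pair against the pair labelled Cry/Per/Nr1d_KO (1.62 ± 0.06), which is 7.14% of the list against 11.3% of all genes tested. It was also called higher against the pair labelled Cry/Per_KO (1.32 ± 0.06), with Arnt (1.13 ± 0.04) and Arnt2 (1.62 ± 0.08). These are 21.4% of the list against 15.2% of all genes tested. With the chromosome 3 median subtracted Arnt was at 0.25, and its call was lost.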

How the data were processed

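RNA of 3 MEF lines was poly-A selected, and strand-specific libraries were sequenced as single-end reads of 50 bases. The authors aligned the reads with STAR (mm10), used featureCounts to count them, and deposited the raw counts of each gene without normalization. Whether this counting used strand, and what became of reads with several alignments, is not stated. The authors also deposited DESeq2 1.22.2 comparisons with the Cry/Per/Nr1d_KO cells (mean counts, log2 fold changes, p-values), which were not used.

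Groups followed the genotype labels. Analysis used R 4.3.3, edgeR 4.0.16, limma 3.58.1 and, as an alternative, DESeq2 1.42.0. A single quasi-likelihood model (TMM scaling, 3 groups) took in the 6 libraries together and had no replicate term. Normalized counts are given at the mean effective library size. The SE is the size of a log2 fold change divided by the square root of F. Totals of 53764390 to 85927236 counts left a biological coefficient of variation of 0.0393, and each group has 2 libraries. The method was tested on simulated data.

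Symbols came from RefSeq (GRCm38.p6) for 25275 of 27179 IDs. Exon lengths and shared 50-base stretches, on either strand and without mismatches, came from GENCODE vM21. For genes with several listed promoter windows, the listed start farthest upstream was taken, which need not be the first start of the gene. Other lists held HIF pathway regulators, further HIF targets, other glycolytic isozymes, pyruvate entry into mitochondria and cell type markers.

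The named genes are the 38 members, with statistics for those called at least once and for Hif1a, Slc2a1, Hk2, Gapdh, Ldha and Vegfa, and, for each other list, whichever called genes rose and fell most. The members and lists were chosen with earlier results of these data known. Alternatives were DESeq2 at the same and at the study's stricter threshold (1e-22), scaling by median-of-ratios size factors or library totals, a filter at 10 or none, calls without the limit on the fold, glmTreat, the compared groups alone, the replicate block, leaving out each library, exchanged labels and chromosome medians subtracted.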

Additional observations from a re-analysis of the deposited data

How the results depend on the processing

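Counts of called members kept within 1.5 times the value reported under DESeq2, median-of-ratios size factors, library totals, both other filters, glmTreat, the compared groups alone and each library left out, for glycolytic enzymes and other members in all 3 comparisons. With library totals the split of the 7 glycolytic enzymes called in the third was 0 higher and 7 lower, against 1 and 4.

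With exchanged labels, glycolytic enzymes and other members called were 4 (0 higher, 4 lower) and 12 (2 higher, 10 lower) between Cry/Per_KO and Cry/Per/Nr1d_KO, 5 and 9 between Per/Nr1d_KO and Cry/Per/Nr1d_KO, and 2 and 7 between Per/Nr1d_KO and Cry/Per_KO. Of all genes tested 8.95% were then called higher and 7.86% lower in the first. The shares were 15.2% and 13.8% in the second, and 11.3% and 9.35% in the third. Without the limit on the fold, and with the genotype labels, glycolytic enzymes and other members called were 15 and 19, 12 and 19, and 16 and 18. Of all genes tested 38.1% were then higher and 38.3% lower in the first, 38.7% and 37.1% in the second, and 42.8% and 39.3% in the third. At DESeq2's adjusted p under 1e-22, 2 glycolytic enzymes were called in the first comparison and 1 in the second. The share of all genes tested was not counted at this threshold. With chromosome medians subtracted, 4 were called in the second, where this share was not counted either. That subtraction turned the sign of Hk2 (-0.14) and Gapdh (-0.015) in the first comparison and of Ldha (0.10) in the second. It also turned Pfkm (0.03), Ldhb (-0.12) and Pfkfb4 (-0.10) in the first, Pgam1 (-0.20) and Higd1a (0.17) in the second, and Pfkfb4 (0.04) and Bnip3l (-0.60) in the third. Calls were gained by Aldoa (0.96) in the first, Hk2 (0.83), Pfkp (-1.02) and Bnip3 (0.81) in the second, and Hk2 (0.96), Pfkl (-0.85), Aldoa (-0.84) and P4ha1 (-0.82) in the third.

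Deviations of same-numbered libraries correlated at -0.188, -0.0843 and -0.02, which gave no sign of an effect shared by libraries of the same number. Such values from 2 libraries per group cannot exclude a pairing. With the replicate block the counts of called members were the same: 4 glycolytic enzymes and 12 other members in the first comparison, 2 and 7 in the second, and 5 and 9 in the third.

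Single genes near the limit on the fold changed side. Eno2 in the first comparison fell to 0.80 without Cry/Per/Nr1d_KO replicate 2 (range 0.80 to 0.98 over libraries left out). In the third comparison Ldhb fell to 0.79 without Cry/Per_KO replicate 1 (range 0.79 to 0.88), Gapdh reached -0.86 without Per/Nr1d_KO replicate 2 (range -0.86 to -0.66), and Hif1a (0.76) and Ldhb (0.73) fell short with library totals. Library totals also made 1 other result of a single gene stronger. Ldha in the second comparison ranged from -0.077 to 0.064. The causes were not tested.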

Other observations

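The fate of pyruvate was read from 12 genes of its entry into mitochondria, all tested. Pdk4, which encodes another kinase that switches off pyruvate dehydrogenase, had 1147 and 1095 normalized counts in the pair labelled Cry/Per/Nr1d_KO, 1825 and 1715 in the pair labelled Cry/Per_KO, and 175 and 185 in the pair labelled Per/Nr1d_KO. It was called lower in the Per/Nr1d_KO pair against both others (log2 fold changes of -2.63 ± 0.09 and -3.29 ± 0.09 in edgeR). Mpc2, a subunit gene of the mitochondrial pyruvate carrier, was called higher in the Per/Nr1d_KO pair (2188 and 2380 against 1195 to 1317 in the other libraries, a call that was lost with the chromosome 1 medians subtracted), and Pdp2, a pyruvate dehydrogenase phosphatase gene, was called lower in the pair labelled Cry/Per_KO than in the pair labelled Cry/Per/Nr1d_KO (-1.13 ± 0.08). The other 9 genes were not called in any comparison. Where any was called in a direction it was 1 of 12 (8.33%), against 8.95% to 15.2% of all genes tested in those directions.

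Of 18 other glycolytic isozymes and transporters 6 were tested, and Hk3, Pklr, Pgk2 and Ldhc had fewer than 3 normalized counts in every library. Eno3, the muscle-type enolase gene, had 449 and 492 normalized counts in the Per/Nr1d_KO pair and 1367 to 1486 in the other 4 libraries, and was called lower there against both other pairs (-1.60 ± 0.08 and -1.54 ± 0.08). Bpgm was called lower in the same comparisons (-1.37 ± 0.06 and -1.52 ± 0.06). These are 33.3% of the 6 genes tested, against 9.35% and 13.8% of all genes tested. Slc16a7, a further lactate transporter gene below the filter, had 19.5 and 26.7 normalized counts in the pair labelled Cry/Per/Nr1d_KO, 185 and 193 in the pair labelled Cry/Per_KO, and 86.2 and 74.2 in the pair labelled Per/Nr1d_KO.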
